A study of Mus musculus with 2 samples.

Results

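Islet endothelial cells, the cells that line the capillaries of the islet, were examined in single-cell RNA sequencing (scRNA-seq) of islets from WT mice and from mice fed a high-fat diet (HFD). They were selected on measured values: a barcode was counted as a member if it held at least 500 genes and at most 20% mitochondrial UMIs (unique molecular identifiers, each a counted RNA molecule), a UMI in at least 3 of the 6 genes Plvap, Flt1, Esm1, Emcn, Kdr and Egfl7, and under 40% of its UMIs from the insulin genes Ins1 and Ins2. This rule took 171 of the 2600 barcodes kept in WT and 159 of the 7297 kept in HFD, 330 of 9897 in all, out of 12846 barcodes deposited. Each group was 1 library of islets pooled from 4 male C57/B6 mice, taken at 16 weeks of age. From the age of 6 weeks the HFD mice received a 60% kcal fat diet, for 10 weeks in all, and no transgene or deletion is named for either group. With 1 library per group no test of diet was possible, so that levels are given in both libraries and every interval is a 95% interval for counting error only, which does not hold the spread between mice or libraries.

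Islet capillaries are dense and fenestrated, and Plvap forms the diaphragms of their pores. β cells secrete VEGF-A, which acts through the receptors Kdr (VEGFR2) and Flt1 (VEGFR1) on these capillaries, and the endothelium lays down the vascular basement membrane on which β cells rest. Pericytes, contractile mural cells embedded in the same basement membrane, wrap the capillaries. Immediate early genes such as Fos and Egr1 are induced within minutes by growth factors, flow, stress or tissue dissociation.

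Few barcodes lay near the threshold of the rule. Among kept barcodes with under 40% insulin UMIs, 406 in WT and 761 in HFD held none of the 6 genes and 149 and 141 held all 6, while only 2 in WT and none in HFD held exactly 2, and 2 and 1 held exactly 3. The WT barcodes with 2 rule genes had a median of 2.5 of 25 other endothelial genes, such as Pecam1, Cdh5 and Tie1, and those with 3 had a median of 18. The edge was less sharp elsewhere: the HFD barcode with 3 rule genes held 7, and those with 4 had medians of 9 in WT and 7.5 in HFD. WT barcodes with 1 rule gene held up to 13. The members held a median of 19 of these 25 genes in WT (range 3 to 24) and 16 in HFD (range 5 to 23), and 164 of 171 and 141 of 159 held at least 10. None of these 25 genes was used by the rule. Outside the rule, 9 insulin-high barcodes in WT and 16 in HFD, those with at least 40% insulin UMIs, also held 3 or more of the 6 genes.

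**Figure D1:**
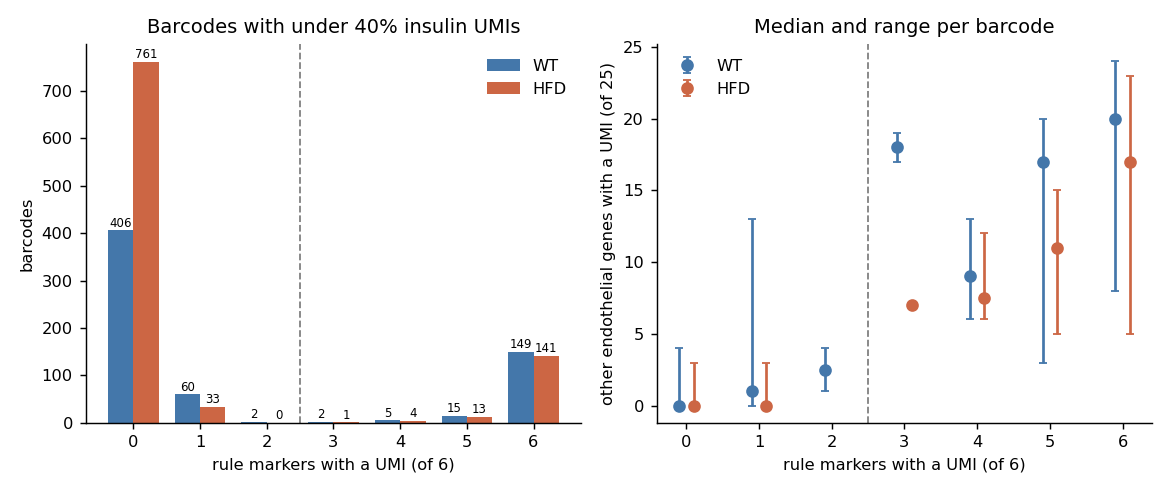
Barcodes with under 40% insulin UMIs, by how many of the 6 rule genes have a UMI (x axis, both panels), in WT (blue) and HFD (orange). The left panel counts barcodes and the right panel gives the median (point) and range (bar) of other endothelial genes detected, of 25; the dashed line marks the rule, and most members, 149 in WT and 141 in HFD, hold all 6.

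Promoters of 4 of these endothelial genes are printed because ETS factors such as Erg, Fli1 and Ets1, all 3 detected in the members, are known regulators of endothelial genes, and these 4 were chosen because they hold the ETS core. The sequences are RefSeq's for GRCm38.p6, 5′ to 3′ on the gene's strand, from 250 bases before to 50 bases after the start site, and capitals mark the ETS core AGGAAG on either strand. Eng (endoglin, a TGF-β co-receptor) is at chr2:32646345-32646644 on the plus strand, Flt1 at chr5:147725962-147726261 on the minus strand, Egfl7 (a secreted endothelial matrix protein, 1 of its 3 listed promoters) at chr2:26580833-26581132 on the plus strand, and Emcn (endomucin, a surface sialomucin) at chr3:137340828-137341127 on the plus strand.
Eng: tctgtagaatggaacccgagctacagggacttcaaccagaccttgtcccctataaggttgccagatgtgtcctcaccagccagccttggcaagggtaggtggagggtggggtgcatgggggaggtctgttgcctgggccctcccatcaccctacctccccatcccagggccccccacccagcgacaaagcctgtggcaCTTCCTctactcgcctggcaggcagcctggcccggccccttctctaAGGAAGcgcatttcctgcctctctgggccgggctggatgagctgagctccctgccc
Flt1: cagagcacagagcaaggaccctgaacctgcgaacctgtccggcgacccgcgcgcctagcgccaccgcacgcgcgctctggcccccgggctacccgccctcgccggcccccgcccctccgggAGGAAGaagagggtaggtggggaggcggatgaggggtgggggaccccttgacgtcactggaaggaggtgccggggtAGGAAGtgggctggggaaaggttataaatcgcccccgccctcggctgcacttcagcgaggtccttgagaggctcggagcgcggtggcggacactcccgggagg
Egfl7: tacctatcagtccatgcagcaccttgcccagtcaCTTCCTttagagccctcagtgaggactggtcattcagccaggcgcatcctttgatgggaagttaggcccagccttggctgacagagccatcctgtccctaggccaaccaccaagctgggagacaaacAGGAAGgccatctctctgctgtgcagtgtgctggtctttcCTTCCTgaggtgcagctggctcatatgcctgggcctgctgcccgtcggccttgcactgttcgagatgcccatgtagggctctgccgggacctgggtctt
Emcn: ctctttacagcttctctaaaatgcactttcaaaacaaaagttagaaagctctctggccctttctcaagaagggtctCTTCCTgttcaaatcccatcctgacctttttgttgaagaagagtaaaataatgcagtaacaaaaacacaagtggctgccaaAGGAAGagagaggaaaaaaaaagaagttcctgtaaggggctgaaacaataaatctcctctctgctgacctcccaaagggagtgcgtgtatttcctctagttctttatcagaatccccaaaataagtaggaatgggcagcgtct
Of the 25 genes that most set the members apart, described next, 13 had a promoter in the table, and 9 of their 16 promoters (56.2%) held the ETS core, beside 35.4% of all 32851 promoters. Of the rule genes, 5 had a promoter in the table, and 4 of their 7 promoters (57.1%) held the core, those of Egfl7, Emcn and Flt1, while none of Kdr or Esm1 did. The joint forkhead and ETS motif AACAGGAA, which overlaps the ETS core where a G follows it, was in none of the 16, in the Egfl7 and Emcn promoters among the rule genes, and in 2.65% of all promoters. These matches are descriptions of the letters and no evidence of binding.

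The genes that most set the members apart from all other kept barcodes, leaving out the 6 of the rule, were led by Fabp4 and Plpp3. Levels are given as CPM, UMIs per 1000000 UMIs summed over the cells named. Fabp4, a fatty acid binding protein of capillary endothelium, had 942 CPM in the WT members and 2052 CPM in the HFD members, against 0.299 and 1.15 CPM in the other barcodes. Plpp3, a lipid phosphate phosphatase, followed with 3544 and 3143 CPM. Gpihbp1, which carries lipoprotein lipase to the capillary lumen, stood at 822 and 971 CPM, and Mgll, which cleaves monoglycerides, at 1100 and 1165 CPM. The 25 genes also held the adhesion genes Cdh5 (VE-cadherin, 549 and 630 CPM) and Pecam1 (797 and 823 CPM), the sphingosine receptor S1pr1, the endothelin receptor Ednrb, and the VEGF co-receptor Nrp1. Of the 25, Fabp4 alone differed by 2-fold or more between the libraries.

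The rule genes themselves were at nearly the same level in both libraries. Plvap stood at 4252 CPM (WT) and 4343 CPM (HFD), a log2 ratio of HFD to WT of 0.03. The VEGF receptors Flt1 (log2 ratio -0.06) and Kdr (-0.11), the proteoglycan gene Esm1 (-0.23), Emcn (0.08) and Egfl7 (-0.02) also lay within 2-fold. Since these genes chose the cells, their levels are a description.

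Endothelial cells were 6.58% of the kept barcodes in WT (Clopper-Pearson interval 5.65 to 7.60) and 2.18% in HFD (1.86 to 2.54). Among barcodes that were not insulin-high they were 26.8% of 639 in WT (23.4 to 30.4) and 16.7% of 953 in HFD (14.4 to 19.2). A share of barcodes depends on how many cells of each type survived islet isolation and dead cell removal, and a diet effect and a difference between preparations cannot be told apart. With at most 15000 UMIs a barcode, the limit the study used, the shares became 18.8% and 3.19%.

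The libraries differed in depth, which touches each comparison below. The members held a median of 6901 UMIs in WT (713 to 38176) and 3477 in HFD (726 to 10865), and insulin-high cells 30286 and 12335. Insulin genes gave a median of 0.456% of the members' UMIs in WT and 1.03% in HFD. Every member held a UMI of both insulin genes, an RNA that endothelial cells do not make. No barcode sequence was shared between the members of the libraries, although 9 were shared over all deposited barcodes. Over members, the limit that a count of 0 allows (3 counts) was 2.004 CPM in WT and 4.90 CPM in HFD.

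Many members also carried several mural cell genes. Of 10 pericyte and smooth muscle markers, at least 3 were found in 60 of 171 members in WT (35.1%, 28.0 to 42.7) and in 75 of 159 in HFD (47.2%, 39.2 to 55.2). With each cell drawn down to 2000 UMIs, the shares were 30.7% of 163 members in WT (23.7 to 38.4) and 49.6% of 115 in HFD (40.1 to 59.0). Insulin-high cells with 3 of these markers made up 0.255% and 0.0788% of insulin-high cells (5 cells in each library). The median depth of all insulin-high cells was 30286 and 12335 UMIs. Members with 3 or more markers held a median of 8 in WT and 6 in HFD, and the others a median of 0. Members with 3 or more are called mural-high and those with fewer than 3 mural-low. The mural-low members were not free of mural RNA: the 10 markers summed to 158 CPM in WT and 631 CPM in HFD, against 4536 and 4542 CPM in the mural-high members, and the part of that remainder in the ratios below was not tested.

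The mural-high members were also the deeper ones. Their median was 13544 UMIs in WT, against 4411 for mural-low members, and 5575 against 2004 in HFD. They still held all 6 rule genes in the median, and the rule genes summed to 16343 CPM in mural-high and 19857 CPM in mural-low members in WT, and to 16250 and 19368 CPM in HFD. Pdgfrb, the pericyte receptor for endothelial PDGF-B, stood at 176 CPM in mural-high and 1.53 CPM in mural-low members in WT, and at 164 and 4.74 CPM in HFD. The contractile gene Acta2 stood at 599 and 1.53 CPM in WT, and at 592 and 9.48 CPM in HFD. Pdgfrb and Acta2 are among the markers that made the split, so their contrasts follow from it and are a description. Mural barcodes outside the endothelial rule were few: 17 kept barcodes in WT and 2 in HFD that were neither members nor insulin-high. Whether a mural-high member was 1 cell or an endothelial cell joined to a pericyte was not tested.

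**Figure D2:**
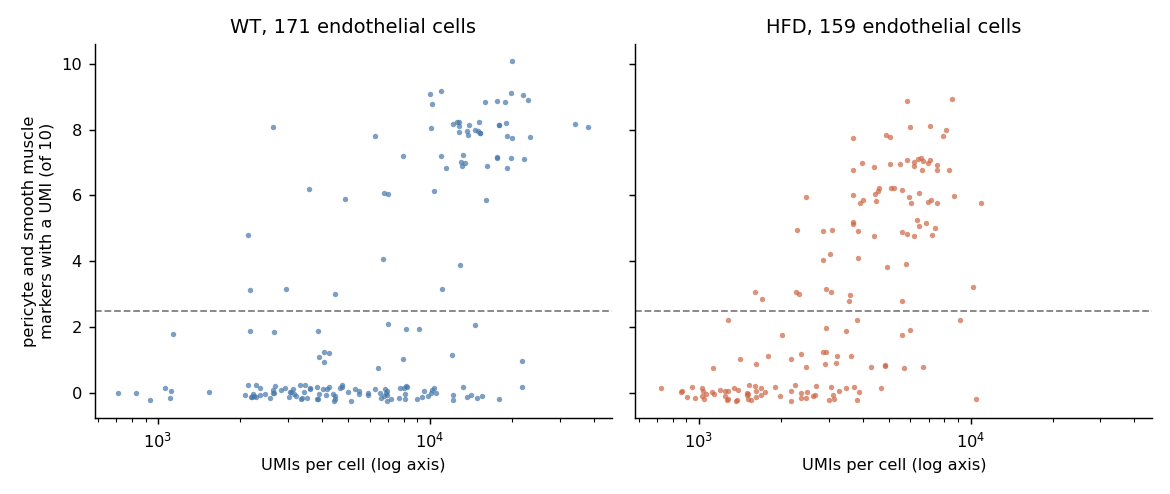
Each point is 1 endothelial cell in WT (left) or HFD (right), by its UMIs (x, log axis) and the number of 10 pericyte and smooth muscle markers with a UMI (y, jittered). The cells form a band at or near 0 and a deeper group above the dashed line at 3 markers, 60 of 171 in WT and 75 of 159 in HFD.

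Outside the 10 markers, genes with at least 50 UMIs in the mural-high members of each library were compared. This minimum could leave out genes found mainly in mural-low members, and the opposite direction is not given. Of the 1420 genes compared, 21 were 4-fold or more above the mural-low members, in both libraries. They included Myl9 (myosin light chain; 465 against 10.7 CPM in WT and 557 against 28.4 CPM in HFD), Mgp (matrix Gla protein, 2770 against 153 CPM in WT and 2559 against 190 CPM in HFD), and the pericyte-enriched genes Higd1b and Ndufa4l2. Ccl2, a monocyte chemokine, had 582 UMIs in the mural-high WT members and 0 in the mural-low, and 202 and 6 UMIs in HFD. Rgs5, which ranked among the 25 identity genes above, is itself a pericyte marker and among the 10 markers that made the split. Its contrast therefore follows from the split and is a description. Rgs5 stood at 2412 CPM in mural-high and 136 CPM in mural-low members in WT, and at 2491 and 550 CPM in HFD. Gm13889, another of the 25, stood at 1884 against 305 CPM in WT and 2514 against 394 CPM in HFD.

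RNA of other cell types was also found in the members. At least 3 of 11 β cell markers, the insulin genes among them, had a UMI in 161 members in WT and 158 in HFD. The acinar list of 11 genes stood at 912 CPM (WT) and 2463 CPM (HFD), with 3 or more of its genes in 142 and 139 members, against 230 and 787 CPM in insulin-high cells. Of 8 ductal markers 3 or more were in 10 WT and 4 HFD members, of 5 erythroid genes in 7 and 2, and of 10 macrophage genes in 5 and 1. These lists stood higher in WT, with ductal genes at 1014 CPM (WT) and 91.4 CPM (HFD). Erythroid genes stood at 4555 and 1249 CPM, and macrophage genes at 459 and 175 CPM. In WT 1 member held 21.6% of the ductal UMIs, 1 held 35.9% of the erythroid and 1 held 75.5% of the macrophage UMIs. Genes of these lists, such as Krt19, Hbb-bs and Cd74, are among those counted below as 2-fold or more lower in HFD. Among the defining markers, Irx2 (α), Pdgfra (fibroblast), Adgre1 (macrophage), Cd3e (T), Ms4a1 (B) and Sox10 (Schwann) were at 0 in both libraries. The fibroblast genes summed to 52.8 CPM in WT and 149 CPM in HFD.

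Most genes were within 2-fold between the libraries. Of the 5578 genes whose members' UMIs summed to 50 or more, 78 (1.4%) were 2-fold or more higher in HFD and 202 (3.62%) 2-fold or more lower, and the median log2 ratio was -0.05. Among members with no more UMIs than the deepest HFD member, 136 of 3706 tested genes (3.67%) were higher and 115 (3.10%) lower. Among members with fewer than 3 mural markers, 84 of 2907 tested genes (2.89%) were higher and 147 (5.06%) lower.

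**Figure D3:**
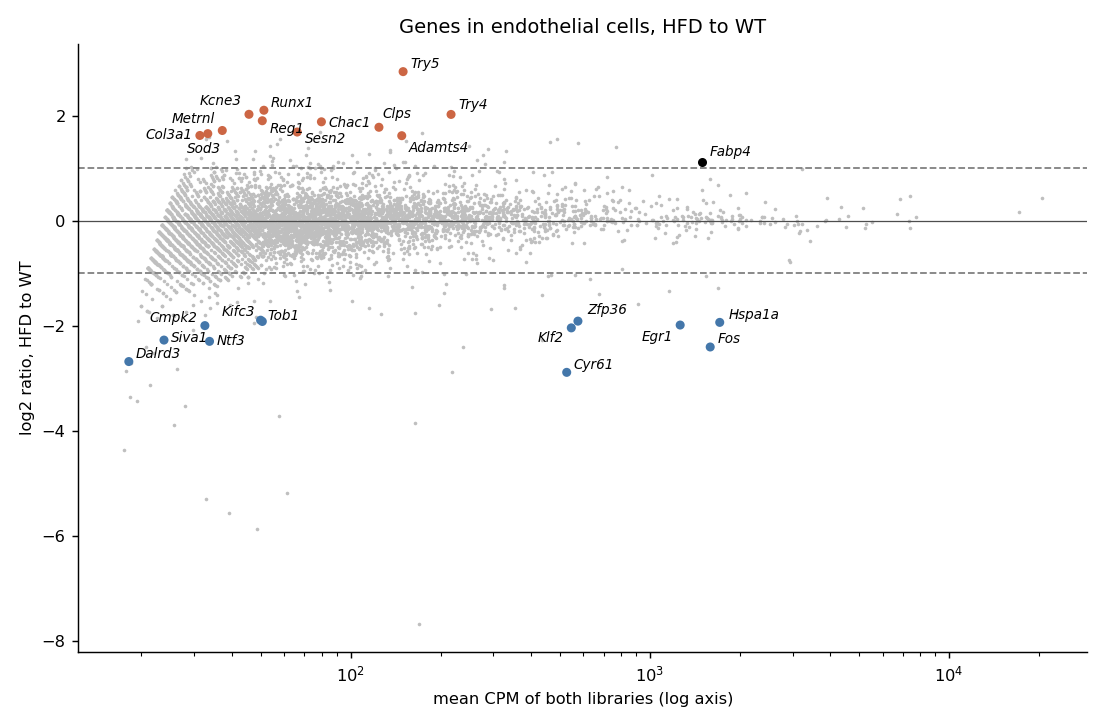
Log2 ratio of HFD to WT (y) against mean CPM (x, log axis) for the 5578 genes tested in endothelial cells, with a gene absent from a library set at 3 counts. Dashed lines mark 2-fold; the 12 named genes higher in HFD are orange, the 12 lower blue, and Fabp4 black, with Fos, Egr1 and Hspa1a the most abundant of the 12 lower genes.

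Immediate early genes were mostly lower in HFD. Of 16 on the list, 10 were 2-fold or more lower and none was 2-fold higher, beside 3.62% and 1.4% of all genes tested. The median log2 ratio was -1.16. Fos, the AP-1 subunit, stood at 2676 CPM (WT) and 506 CPM (HFD) (log2 ratio -2.40, interval -2.57 to -2.24), with a UMI in 91.2% and 59.1% of members. Egr1, a zinc finger factor, stood at 2016 and 509 CPM (-1.99, -2.16 to -1.82). Cyr61, a matricellular YAP target, had the lowest named ratio, with 929 and 126 CPM (-2.89, -3.24 to -2.55). Zfp36, which degrades cytokine mRNA, stood at 908 and 242 CPM (-1.91, -2.17 to -1.67). The same list had a median of -1.29 in insulin-high cells, where Fos was at -2.33, Egr1 at -1.71 and Zfp36 at -1.79. Each diet was 1 preparation of islets, and a diet effect and a difference between the preparations cannot be told apart.

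The list was not uniform. Jun (log2 ratio -1.27) and Junb (-0.75) were lower, while Jund, a further AP-1 subunit, stood at 2757 CPM (WT) and 2832 CPM (HFD) (0.04, -0.04 to 0.12). Ier3, an early gene linked to survival, went the other way, with 1170 and 2019 CPM (0.79, 0.68 to 0.89), and so did Dusp1, a MAP kinase phosphatase, with 925 and 1172 CPM (0.34, 0.21 to 0.47). In insulin-high cells both ratios were negative, -0.61 for Ier3 and -2.13 for Dusp1. In mural-low members Ier3 was at 0.71 and Dusp1 at 0.28.

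Klf2 and Klf4, the flow-responsive factors that keep endothelium quiescent, were also lower. Klf2 stood at 879 CPM (WT) and 214 CPM (HFD) (-2.04, -2.31 to -1.78). It was found in 73.1% and 34.0% of members, and in 57.1% and 21.7% of those drawn down to 2000 UMIs. Its ratio was -2.03 in mural-high and -2.04 in mural-low members, and between -2.11 and -1.997 under each of the 13 alternatives run. In insulin-high cells Klf2 was at 25.7 and 19.6 CPM, a log2 ratio of -0.39. Klf4 stood at 865 and 400 CPM (-1.11, -1.32 to -0.91; -0.99 when thinned to 2000 UMIs), beside -0.77 in insulin-high cells. The Klf2 and Klf4 target Nos3, endothelial nitric oxide synthase, lay on the other side, at 70.8 and 134 CPM (0.92, 0.48 to 1.35), and Thbd, thrombomodulin, at -0.09.

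Of 11 heat shock genes, 3 were 2-fold or more lower in HFD, beside 3.62% of all genes tested. Hspa1a, the inducible Hsp70, stood at 2714 CPM (WT) and 710 CPM (HFD) (-1.93, -2.08 to -1.79). Its twin Hspa1b, whose reads can be split with it, was at 536 and 170 CPM (-1.66) and the co-chaperone Dnajb1 at 637 and 238 CPM (-1.42). In insulin-high cells the ratios were -0.07, 0.09 and -0.12. The constitutive Hspa8 (-0.19) and Hsp90ab1 (-0.11) were within 2-fold in the endothelial cells. The difference between the cell types has no replicate check.

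**Figure D4:**
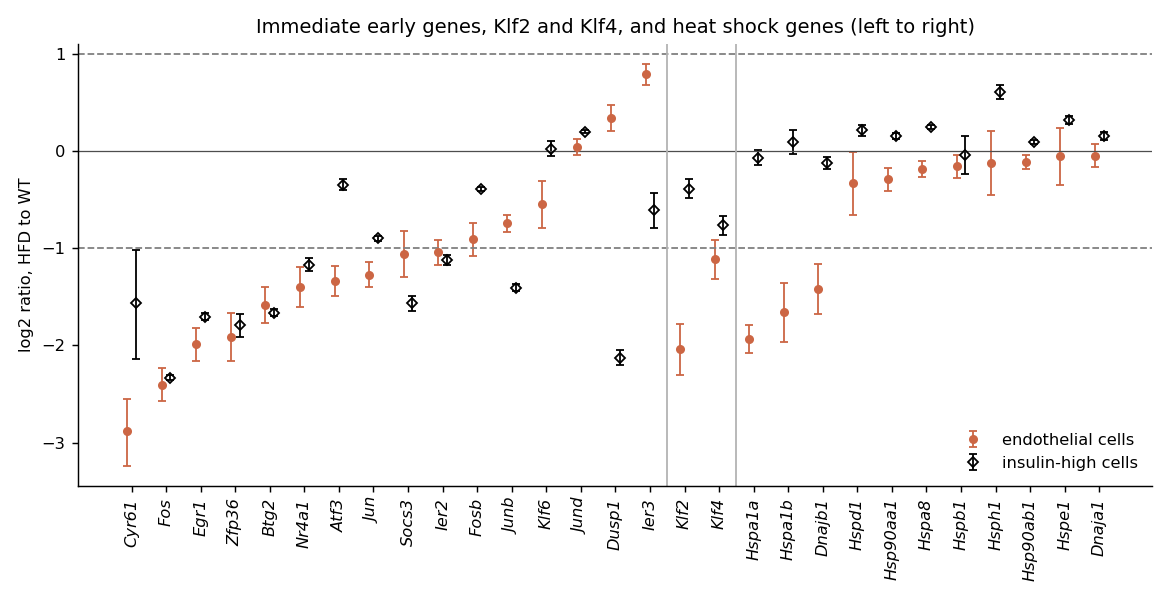
Log2 ratio of HFD to WT (y) for, from left to right, 16 immediate early genes, Klf2 and Klf4, and 11 heat shock genes, in endothelial cells (orange) and insulin-high cells (black diamonds); bars are 95% counting intervals and dashed lines mark 2-fold. Fos and Zfp36 lie near each other in both cell types, while Ier3, Dusp1, Cyr61, Klf2, Hspa1a, Hspa1b and Dnajb1 lie apart.

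The SoxF transcription factors of endothelium differed among themselves. Sox18 stood at 175 CPM (WT) and 55.5 CPM (HFD) (-1.66, -2.22 to -1.14) and Sox17 at 98.2 and 42.4 CPM (-1.21, -1.87 to -0.60), while Sox7 was at 0.34. Of the 25 further endothelial genes, 1 was 2-fold higher, Cldn5, and these 2 were 2-fold lower, beside 1.4% and 3.62% of all genes tested. The median of the 25 was 0.08. Cldn5, the tight junction claudin, stood at 60.1 and 129 CPM (1.10, 0.65 to 1.55) and was found in 7.02% and 13.8% of members. Among members with at most 15000 UMIs its ratio was 0.58. None of the 9 genes of caveolae and diaphragms and none of the 10 tested VEGF and angiopoietin genes was past 2-fold, with medians of -0.22 and -0.14. Among them Cav2 (-0.87) and Cavin2 (-0.73) had the lowest ratios and Angpt2, an antagonist of Tie2 made by sprouting endothelium, the highest (108 and 183 CPM, 0.76, 0.40 to 1.11).

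Genes of fatty acid handling had a median log2 ratio of 0.20 over 13 tested. Of the 13, 1 was past 2-fold higher and 1 lower, beside 1.4% and 3.62% of all genes tested. Fabp4 had 1410 UMIs in WT and 1257 in HFD, a log2 ratio of 1.12 (1.01 to 1.23), and was found in 77.2% and 87.4% of members. In insulin-high cells Fabp4 had 0.244 and 1.17 CPM (16 and 104 UMIs), a log2 ratio of 2.27. Its ratio was 1.77 in mural-high but 0.68 (0.52 to 0.84) in mural-low members, and 0.56 among members no deeper than the deepest HFD member, where it was no longer past 2-fold. Mural-low WT members held 1431 CPM of Fabp4, against 564 CPM in mural-high ones, and the HFD members 2290 and 1926 CPM. Plin2, the lipid droplet coat, stood at 123 and 225 CPM (0.87, 0.54 to 1.20), and the mitochondrial carrier Ucp2 at 167 and 297 CPM (0.83, 0.55 to 1.11), beside 0.05 and 0.32 in insulin-high cells. Tcf15, with Meox2 a factor of fatty acid uptake in capillaries, was lower, with 80 and 11 UMIs (-1.57, -2.63 to -0.66).

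Basement membrane genes had a median of 0.14 over 18 tested, with 2 past 2-fold higher and none lower, beside 1.4% and 3.62% of all genes tested. Col4a1 stood at 1124 CPM (WT) and 1333 CPM (HFD) (0.25, 0.12 to 0.37), and Sparc, a collagen-binding matricellular protein, at 2116 and 2726 CPM (0.37, 0.28 to 0.45). Both past 2-fold were low in count. Col18a1, the source of endostatin, had 44 and 48 UMIs (1.41, 0.79 to 2.04) and Emilin1, an elastic fibre protein, 26 and 24 (1.17, 0.31 to 2.03). In mural-low members Col18a1 was at 0.74, with an interval of -0.83 to 2.17 that holds 0. In insulin-high cells the list's median was -0.56.

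None of the 24 interferon and MHC class I genes was past 2-fold. The median was -0.27, beside -0.05 over all genes tested and -0.62 for the list in insulin-high cells. Among the lowest ratios were Tap2, a peptide transporter (-0.93, -1.42 to -0.47), Isg15, a ubiquitin-like interferon-induced protein (-0.81) and the transcription factor Irf1 (-0.78), beside -0.72, -0.97 and -0.64 in insulin-high cells. Ifitm3, an antiviral membrane protein, stood at 2430 and 2822 CPM (0.22, 0.13 to 0.30). Among 13 adhesion and chemokine genes 1 was past 2-fold higher and 2 lower, Cxcl10 and Selp, beside 1.4% and 3.62% of all genes tested. Cxcl1, a neutrophil chemokine, was the higher one, with 82.8 CPM in WT and 263 CPM in HFD (1.67, 1.32 to 2.02). It was at 1.86 in mural-high and at 0.69 (-0.10 to 1.45) in mural-low members. Cxcl10, an interferon-induced T cell chemokine, was at 274 and 135 CPM (-1.02), at -0.92 in mural-low members and at -0.84 without members carrying 3 markers of another cell type, both within 2-fold, and Icam1, the leukocyte adhesion receptor, at 279 and 277 CPM (-0.01, -0.27 to 0.25).

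**Figure D5:**
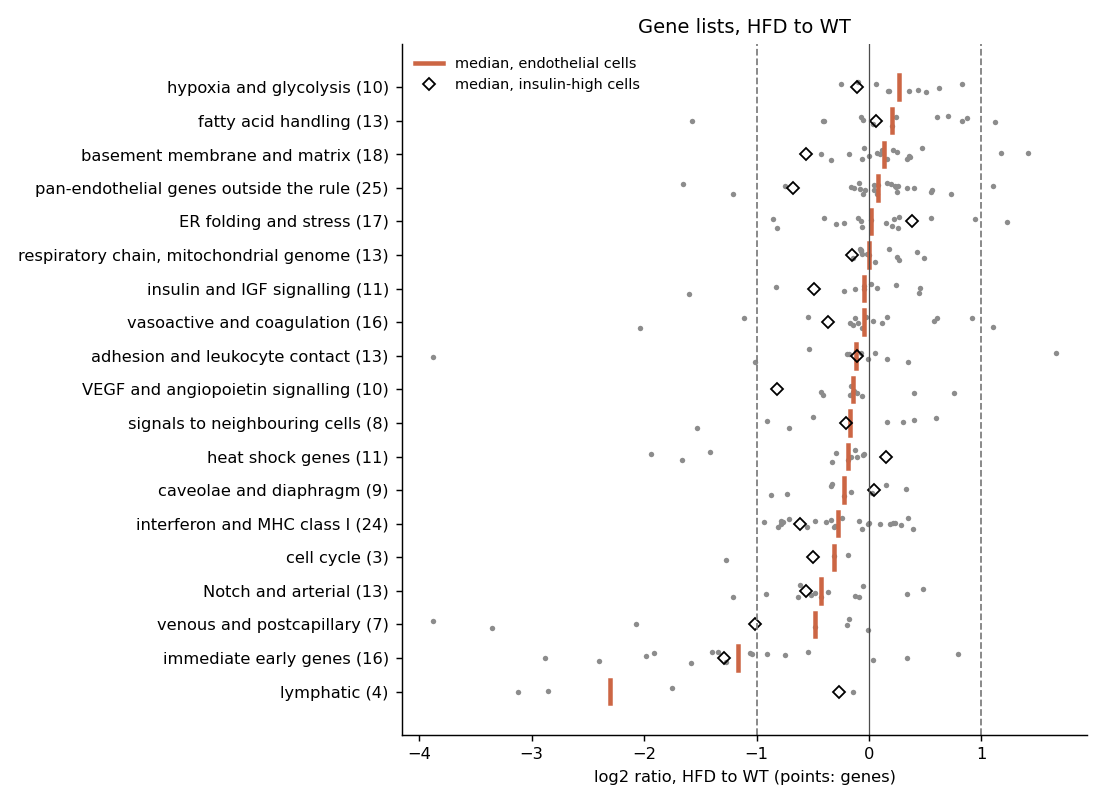
Log2 ratio of HFD to WT (x) for each tested gene (grey points) of 19 gene lists, with the list's median in endothelial cells (orange bar) and in insulin-high cells (open diamond); the number of tested genes is in brackets. Immediate early genes lie at a median of -1.16 in endothelial cells, and the lymphatic list holds 4 tested genes.

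In other lists single genes stood out. Txnip, a glucose-responsive inhibitor of thioredoxin, stood at 297 CPM (WT) and 97.9 CPM (HFD) (-1.60, -2.01 to -1.21), beside -0.60 in insulin-high cells. Ctgf, like Cyr61 a YAP target, had 106 and 15 UMIs (-1.53, -2.42 to -0.75). Among 17 ER folding and stress genes only Trib3, a pseudokinase of the integrated stress response, was past 2-fold (higher), beside 1.4% of all genes tested. Trib3 had 48 and 46 UMIs (1.23, 0.61 to 1.84, and 0.99 when thinned). Xbp1, the factor of the unfolded protein response, stood at 184 and 354 CPM (0.94, 0.68 to 1.20). Hypoxia and glycolysis genes, 1 list, had a median of 0.27 over 10 tested, led by the glucose transporter Slc2a1 (77 and 56 UMIs, 0.83, 0.31 to 1.34), and none of the 10 was past 2-fold. The 13 genes of the mitochondrial genome lay between -0.14 and 0.49.

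Of the 12 genes named for the highest ratios, Try5 (2.84), Try4 (2.02), Reg1 (1.90) and Clps (1.78) are acinar genes. Try5 had 55 UMIs in WT and 161 in HFD, and Try4 had 128 and 213. Their ratios in insulin-high cells were 3.27, 2.31, 1.69 and 1.89, each also past 2-fold. With cells drawn down to 2000 UMIs the ratio of Reg1 was 0.18 and that of Clps 0.97. Chac1, an ATF4 target that degrades glutathione, had 51 and 77 UMIs (1.88, 1.35 to 2.42), beside 1.67 in insulin-high cells.

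The other 7 were not acinar. Runx1, a transcription factor, had 29 UMIs in WT and 51 in HFD (2.10, 1.42 to 2.81), and stood at 31.9 CPM in mural-high and 3.07 CPM in mural-low members in WT and at 119 and 14.2 CPM in HFD. Its mural-low levels are those of 2 UMIs in WT and 3 in HFD. Kcne3, a potassium channel subunit, had 27 and 45 UMIs (2.03, 1.31 to 2.77), at like levels in mural-high and mural-low members. Sesn2, a stress-induced sestrin, had 47 and 62 UMIs (1.69, 1.12 to 2.27) and Adamts4, a matrix protease, 109 and 137 (1.62, 1.25 to 1.995), and both were higher in mural-low members too, at 2.56 and 2.51. Metrnl (1.72) and Sod3, the extracellular superoxide dismutase (1.66), had 35 and 31 UMIs in HFD. In mural-low members Sod3 had 4 UMIs in WT and 0 in HFD, below what gives a ratio. Col3a1, a fibrillar collagen, had 23 and 29 UMIs (1.62, 0.78 to 2.48), of which 1 and 0 were in mural-low members.

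Of the 12 named for the lowest ratios, Fos, Egr1, Cyr61, Zfp36, Klf2 and Hspa1a are described above. Ntf3, a neurotrophin, had 84 UMIs in WT and 7 in HFD (-2.30, -3.65 to -1.19), found in 32.7% and 4.40% of members. The others were Kifc3, a kinesin, with 120 and 13 UMIs (-1.92), Tob1, an antiproliferative gene, with 118 and 13 (-1.89), Cmpk2 with 78 and 8 (-1.996), Siva1 with 59 and 5 (-2.27) and Dalrd3 with 47 and 3 (-2.68, -5.01 to -1.05). Dalrd3 and Siva1 were at -0.11 and -0.19 in insulin-high cells. Among members without 3 markers of any other cell type, mural included and endocrine and acinar not, Dalrd3 was at -0.50 and Siva1 at -0.91, no longer past 2-fold. All of the other 10 stayed past 2-fold under the 13 alternatives.

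Of 13 tested Notch and arterial genes, 11 had a negative log2 ratio, beside 3124 of all 5578 genes tested. The list's median was -0.43, beside -0.05 over all genes tested. Past 2-fold was 1, Sox17 (lower), beside 3.62% of all genes tested. The chemokine Cxcl12 (-0.91) and the Notch target Hey1 (-0.63) followed, while the ligand Jag1 (0.48) and the receptor Notch1 (0.34) were positive. In insulin-high cells the list's median was -0.56.

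Vessel types were sought by small marker sets. At least 2 of 7 arterial genes, such as Gja4, Hey1 and Dll4, were found in 58.5% of members in WT and 33.3% in HFD, but after drawing each cell down to 2000 UMIs in 27.0% (20.3 to 34.5) and 20.9% (13.9 to 29.4), intervals that overlap. The arterial connexin Gja4 stood at 276 CPM in mural-high and 82.8 CPM in mural-low members in WT, and at 182 and 42.7 CPM in HFD. At least 2 of 6 venous genes were in 4.91% (2.14 to 9.44) and 2.61% (0.541 to 7.43) of the cells so drawn. The venous Selp, a selectin for rolling leukocytes, had 72 UMIs in 6 WT members, 63.9% of them in 1 cell, and 2 UMIs in HFD, and Vwf had 50 and 2. At least 2 of 5 lymphatic genes were in 1 WT member and 0 of 159 in HFD, which allows a share of members with such UMIs of up to 1.89% by the limit of 3 counts (Clopper-Pearson upper bound 2.29%), and sets no limit on cells of that type. All 379 Ccl21a UMIs and all 53 Mmrn1 UMIs of WT were in 1 cell each, and the 46 Ccl21a UMIs of HFD in 1 cell. Cycling cells, with at least 2 of 13 proliferation genes at 2000 UMIs, numbered 1 of 163 in WT, and in HFD 1 of 115.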

How the data were processed

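Islets of both groups were dissociated, cleared of dead cells and profiled by 10x Genomics 3′ scRNA-seq. Per the labels, the authors used Cell Ranger 3.0.2 with the mm10 genome, and the deposited matrices hold counts, the raw UMIs per gene and barcode. The members, gene lists and marker lists were chosen with earlier results of these data known.

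UMIs were summed over the members of each library and scaled to 1000000 (CPM), with no pseudocount. The libraries held 73843674 (WT) and 94375138 (HFD) UMIs, and their members 1497215 and 612706. Ratios of HFD to WT carry exact conditional 95% intervals and shares Clopper-Pearson intervals. UMIs are not wholly independent molecules of a sample, so all intervals cover counting error only. Genes with at least 50 UMIs were compared and called at 2-fold, with no test. The text names the 12 highest and 12 lowest of these with an interval without 0, a UMI in at least 10% of members of the higher library, no more than 20% of UMIs in 1 cell, a level at or above that in insulin-high cells, the same direction under each scaling, and a name other than a clone or accession name. The 25 identity genes had the highest ratio to other kept barcodes (1 CPM added, libraries weighted equally), with a UMI in at least 25% of members of each library. Members of the lists could also be named, and genes set apart by mural markers were chosen after their values were seen. A gene at 0 in a library was set at 3 counts, and given no ratio where that reached the other library's level. Doublets were not called. The alternatives were other cell filters, scalings, thinning to 2000 UMIs, subtraction of free RNA and other count minimums. Ratios were checked on simulated counts. Python 3.11.15, numpy 2.4.6, scipy 1.17.1 and pandas 2.3.3 were used.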

Additional observations from a re-analysis of the deposited data

How the results depend on the processing

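No paired analysis was possible because each group held 1 library. The endothelial share of kept barcodes became 18.8% in WT and 3.19% in HFD with at most 15000 UMIs, 1.74% in HFD with at least 1000 genes, and 3.85% and 1.11% without members carrying 3 markers of another cell type (mural included, endocrine and acinar not). Genes 2-fold higher in HFD, 78 as reported (1.4% of 5578 tested), were 165 with at least 20 UMIs (2.01% of 8190). They were 49 with at least 100 (1.41% of 3465) and 896 with at least 1 (6.24% of 14356). Among members with no more UMIs than the deepest HFD member they were 136 (3.67% of 3706). Genes 2-fold lower, 202 as reported (3.62%), were 667 (8.14%), 74 (2.14%), 1435 (10.0%) and 115 (3.10%) in the same order. They were 57 with cells thinned to 2000 UMIs (2.88% of 1982) and 104 without members carrying markers of another type (4.19% of 2480). Fewer UMIs or cells entered several of these counts, and the cause was otherwise not tested. Ccl21a, at -1.75, reversed to 5.21 with at least 4 of the 6 rule genes and 3.82 under the depth limit, since 1 WT cell held its UMIs. The depth limit and the restriction to mural-low members were chosen after seeing the data. The median log2 ratio of the immediate early genes ran from -1.26 to -1.12 and that of fatty acid handling from -0.11 to 0.42. Without members carrying markers of another type the median of the venous genes went from -0.48 to -2.93. That of the heat shock genes went from -0.19 to -0.60. Of the 12 genes named higher, 10 stayed past 2-fold among mural-low members (not Sod3 and Col3a1), 10 when thinned (not Reg1 and Clps) and 9 without markers of another type (not Runx1, Sod3 and Col3a1). Among mural-low members Runx1 stayed on only 2 UMIs in WT and 3 in HFD.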
